A study of Gallus gallus with 4 samples.

Results

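SMC2 was pulled down from mitotic DT40 cells, and its sites were described by how wide they were, how far apart they lay and how the signal was arranged on either side of transcription start sites (TSSs). DT40 is a chicken B cell lymphoma line. In these cells SMC2 carrying a streptavidin-binding tag (SBP) had rescued a knockout, and the untagged protein was kept off with doxycycline at 2 ng/ml, so that the transgene was the sole source of SMC2. Cells were arrested with nocodazole at 500 ng/ml, a drug that blocks mitosis by disrupting microtubules. The same arrest, doxycycline dose and crosslinking in 1% formaldehyde apply to the SMC2 input, a library of DNA taken without streptavidin. Members were chosen by sample, as every row of the SMC2 peak list and every position of the SMC2 TSS profile. These were 6474 peaks, of 10843 in the series of 4 libraries, and 10001 positions. There was 1 library of each kind, so no value has a replicate check, and the depth of the libraries is unknown. No file of the input was used here, and the header of the profile does not say which library its Control column holds.

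Condensin is a ring-shaped complex that folds chromatin into the compact rods seen in mitosis. SMC2 forms its core together with SMC4, as a pair of long coiled-coil ATPases whose joined heads bind ATP, and this pair is present in both condensin I and condensin II. A pull-down of SMC2 therefore collects DNA bound by either form. Purified condensin can extrude DNA loops, and in vertebrate cells condensin has been mapped near the start sites of active genes. The gene table at hand places SMC2 itself on chromosome Z, but in another genome build than the peaks, so its locus was not looked up among them.

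SMC2 peaks had a narrow range of widths around 1 kb and a thin tail of very wide sites. The median width was 1126 bp (95% order-statistic interval 1111 to 1139, over peaks of this library only). The middle 50% of peaks ran from 889 to 1592 bp, and 90% were at or under 2377 bp. The narrowest peak had 437 bp and the widest 40.4 kb. Peaks of at least 2 kb made up 15.0% of the list (exact binomial interval 14.2 to 15.9) and 34.4% of the length covered. The 95 peaks of at least 5 kb were 1.47% of the list (1.19 to 1.79) and 7.85% of that length, and 11 peaks reached 10 kb. The widest 10% of peaks held 26.9% of the covered length, and the widest 50% held 69.5%. Most of the covered sequence lay in peaks under 2 kb.

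Each of the 10 widest peaks had another peak within 1194 bp, while the narrowest peaks on placed chromosomes were isolated. Positions are given in the build galGal4, counted from 1. The widest peak, on chromosome 5 from 3065817 to 3106172, lay 0.326 kb from the peak after it and 1.68 kb from the peak before. On chromosome Z the peak of 31.3 kb from 42623493 to 42654744 had a neighbour 0.523 kb downstream, while on its other side the nearest peak was 2255 kb away. A pair on chromosome 20, of 17.5 kb from 10861505 to 10879048 and of 16.7 kb from 10363050 to 10379778, lay 259 bp and 120 bp from their nearest neighbours. The others of the widest 10 were on chromosome 18 (13.8 kb from 10048393 and 13.7 kb from 9482516), chromosome 27 (12.4 kb from 4258556), chromosome 24 (12.3 kb from 5619951), chromosome Z (11.4 kb from 82208586) and chromosome 16 (10.9 kb from 83219). Their nearest neighbours were between 48 and 1194 bp away. Of the narrowest 5, the peak of 437 bp on chromosome 21 from 3887085 lay 252 kb from its nearest neighbour, that of 443 bp on chromosome 9 from 9508324 lay 90.8 kb away, and that of 488 bp on chromosome 1 from 16219584 lay 294 kb away. The other two narrow peaks were on unplaced sequences.

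**Figure D1:**
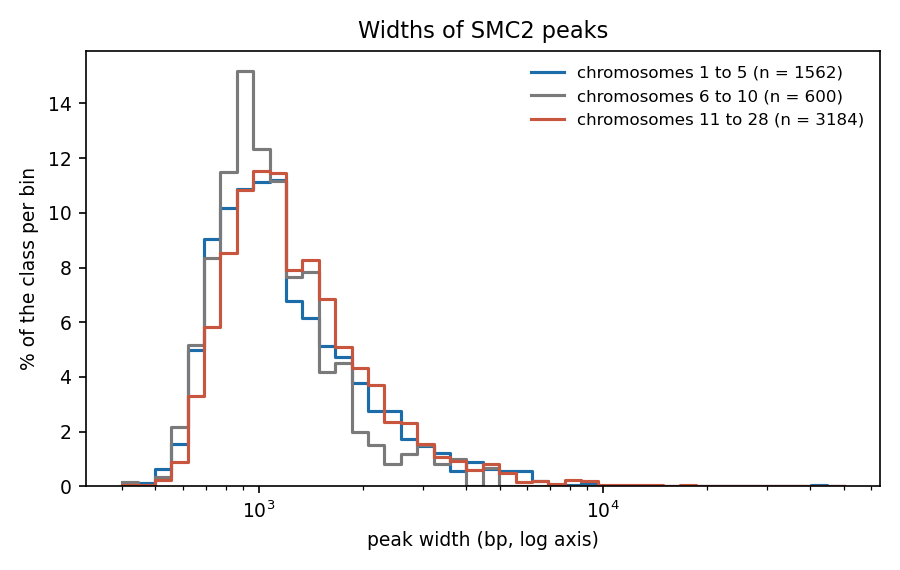
Width of SMC2 peaks (horizontal, bp on a log axis) as a share of each chromosome class (vertical, % per bin), for 1562 peaks on chromosomes 1 to 5, 600 on chromosomes 6 to 10 and 3184 on chromosomes 11 to 28. The 3 distributions overlap widely around 1 kb, with medians of 1087, 1025 and 1169.5 bp.

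Width varied less than spacing between chromosomes. The median was 1087 bp on the macrochromosomes, 1 to 5, and 1025 bp on chromosomes 6 to 10. It was 1169.5 bp on the microchromosomes, 11 to 28, and 1097.5 bp on unplaced sequence. Chromosome 2, with a median of 1359 bp and 515 of the 1562 macrochromosome peaks, lifts its class. Without it the median was 973 bp (950 to 1001), and the class medians then rose from large to small chromosomes. That order rests on leaving out chromosome 2 alone, picked once its values had been seen. Chromosomes 20 and 24, with 387 and 275 peaks and medians of 1589 and 1523 bp, stayed among the microchromosomes. Within that class the medians ran from 931 bp on chromosome 17 to 1655 bp on chromosome 16. Over the 29 chromosomes with at least 20 peaks the medians ran from 895 bp on chromosome 3 to 1655 bp on chromosome 16, a ratio of 1.85, and 22 of the 29 lay between 900 and 1200 bp. Spacing varied far more: the median gap between neighbours ran from 4.80 kb on chromosome 27 to 262 kb on chromosome 3, a ratio of 54.6. Across the chromosomes, those with shorter median gaps had wider peaks (Spearman's rho -0.65 over 29 chromosomes, all of 1 library, given as a description).

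Neighbouring SMC2 peaks were at a median of 21.0 kb from each other, with both tight clusters and long empty stretches. A gap is the distance from the end of a peak to the start of the next on the same sequence. The 5728 gaps had a median of 21.0 kb (19.3 to 22.7), with a middle 50% from 3.47 to 102 kb, and a mean of 172 kb, 8.22 times the median. No neighbouring peaks touched or overlapped. On placed chromosomes the shortest gaps were 3 bp, at 3 places. On chromosome 16 the gap lay between peaks of 4711 and 1655 bp, and on chromosome 5 between peaks of 917 and 1598 bp. On chromosome 9 it lay between peaks of 995 and 1965 bp. Gaps of 4 bp followed on chromosomes 14 and 18. In all, 72 gaps were shorter than the read length of 50 bp, and 13.1% (12.2 to 14.0) were under 1 kb. Gaps under 5 kb made up 29.6% (28.4 to 30.8). At the other end, the 242 gaps of at least 1 Mb were 4.22% (3.72 to 4.78) of all gaps and 52.2% of their summed length.

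**Figure D2:**
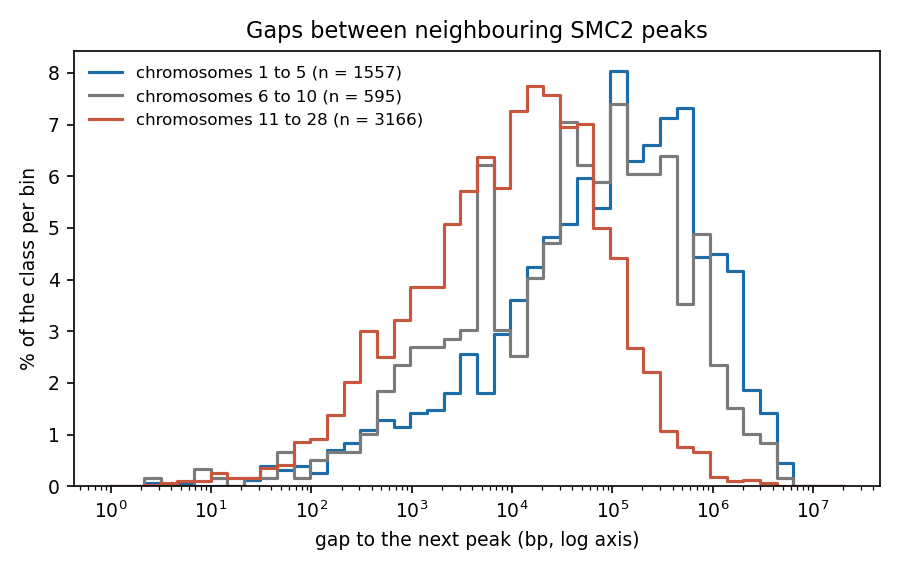
Gap from an SMC2 peak to the next (horizontal, bp on a log axis) as a share of each chromosome class (vertical, % per bin), with 1557, 595 and 3166 gaps on chromosomes 1 to 5, 6 to 10 and 11 to 28. The bulk of the gaps shifts to the left from large to small chromosomes, from a median of 104 kb through 50.7 kb to 12.01 kb.

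The median gap was 104 kb on macrochromosomes, 50.7 kb on chromosomes 6 to 10 and 12.01 kb on microchromosomes. Gaps under 5 kb made up 14.6% (12.9 to 16.4), 21.5% (18.3 to 25.04) and 35.9% (34.3 to 37.6) of the gaps in these classes. Unplaced sequences had a median gap of 2.71 kb, but these are short pieces, and 609 of the 716 that bore peaks had a single peak and so no gap at all. Gaps of 1 Mb or more made up 60.04% of the summed gap length on macrochromosomes and 15.4% on microchromosomes. Chromosome W had 4 peaks and 3 gaps, too few to describe.

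Long and short gaps followed their own kind along a chromosome. On placed chromosomes the length of a gap and of the gap after it had a Spearman's rho of 0.50 over 5416 pairs. Large and small chromosomes are pooled in that value; the correlation was 0.46 within chromosomes 1 to 5, 0.37 within chromosomes 6 to 10 and 0.38 within chromosomes 11 to 28. It was above 0 on each of the 29 chromosomes, from 0.03 on chromosome 26 to 0.59 on chromosome 4. Successive gaps share the peak between them and all come from 1 library, so these are descriptions.

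Clusters of peaks were described as runs in which every gap was 5 kb or less. Of all peaks, 39.9% (38.7 to 41.1) had such a neighbour. These formed 887 runs, of which 539 were pairs, and 348 held 3 or more peaks. The 11 runs of at least 10 peaks held 170 peaks and were all on microchromosomes. Of these, 3 were on chromosome 18, 3 on chromosome 20, 2 on chromosome 24 and 3 on chromosome 27. Microchromosomes held 3184 of all 6474 peaks, at a median gap of 12.01 kb against 104 kb on macrochromosomes. Whether runs were longer than this density gives was not tested. Runs of at least 3 held 33.9% (32.2 to 35.6) of the peaks on microchromosomes, 18.2% (15.2 to 21.5) on chromosomes 6 to 10 and 11.1% (9.56 to 12.7) on macrochromosomes.

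The longest run lay on chromosome 18 from 9459575 to 9550758, with 23 peaks in 91.2 kb. Peaks covered 61.0% of it, and its highest score was 1012. The score is the authors' own value for a peak. It was used here to rank peaks, to give the highest value in a run and, with a cutoff of 500, to pick strong peaks. Next came chromosome 24 from 5584200 to 5670458, with 18 peaks in 86.3 kb and 75.3% covered, and chromosome 20 from 10841933 to 10918803, with 14 peaks in 76.9 kb and 84.4% covered. The run on chromosome 27 from 4257138 to 4330083 had 17 peaks in 72.9 kb, with 55.5% covered. A second run on chromosome 24, from 5388255 to 5458102, also had 23 peaks, in 69.8 kb, but its highest score was 264 and its widest peak 4.43 kb. In these 5 runs peaks filled between 55.5% and 84.4% of the sequence, with median widths from 1433 to 2876 bp. The runs were picked by length in bp, which counts the widths of their peaks, so wide peaks were favoured.

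Peaks close to another peak were wider than isolated ones. The median width was 1392 bp (1343 to 1441) for the 1299 peaks with a neighbour under 1 kb away. It was 1202 bp (1174 to 1247) for peaks with their nearest neighbour at 1 to 5 kb, 1111 bp (1083 to 1146) at 5 to 20 kb and 1042.5 bp (1006 to 1064) at 20 to 100 kb. For the 808 peaks whose nearest neighbour lay 100 kb or more away it was 959.5 bp (925 to 994). The 609 peaks alone on an unplaced sequence have no such distance and were left out of these sets. The share of peaks of 2 kb or wider went from 27.8% to 7.43% between the closest and the most isolated set. The same order of the 2 ends held within microchromosomes, at 1402 and 920 bp, within chromosomes 6 to 10, at 1276 and 909 bp, and within macrochromosomes without chromosome 2, at 1325 and 864 bp. Width and gap are set by the same peak edges, so the relation is given as a description.

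**Figure D3:**
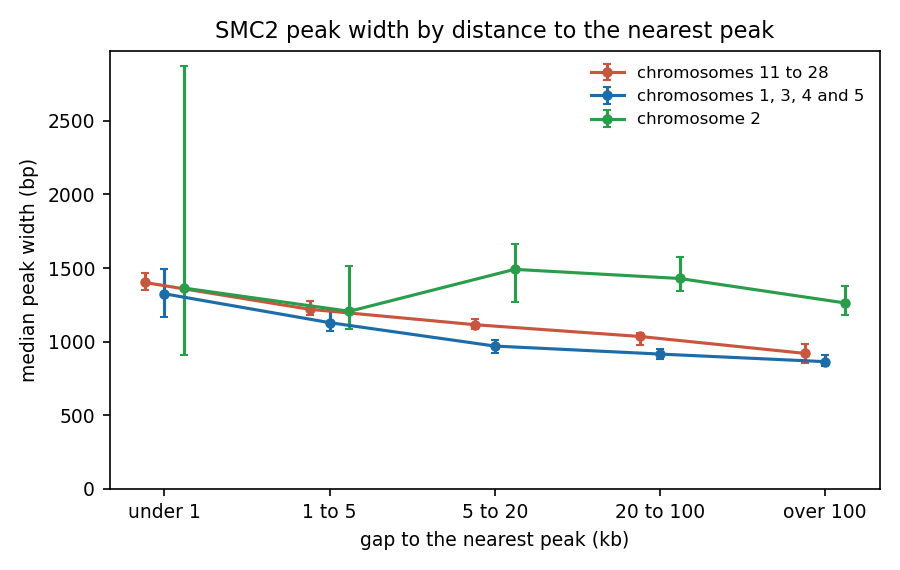
Median width of SMC2 peaks (vertical, bp) by the gap to the nearest peak (horizontal, kb), for chromosomes 11 to 28, for chromosomes 1, 3, 4 and 5, and for chromosome 2. Bars are 95% order-statistic intervals over peaks. Width falls at each step of isolation on the first 2 sets, to 920 and 864 bp, while on chromosome 2 it is highest, at 1491 bp, in the middle set and 1263 bp in the most isolated peaks.

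By their medians, stronger peaks were wider and closer to other peaks. Scores ran from 50.0 to 3100. Width and score had a Spearman's rho of 0.64 over all peaks, which share reads between the measures. In 5 equal groups by score, the median width went from 854 bp (838 to 871) in the weakest through 926, 1068.5 and 1246 bp to 2023 bp (1954 to 2070) in the strongest. The median distance to the nearest peak went from 18.0 kb (15.5 to 21.4) in the weakest group through 13.7, 8.47 and 5.33 kb to 1.76 kb (1.48 to 2.09) in the strongest. Peaks alone on their sequence have no such distance and do not count in it. On macrochromosomes that distance was 76.6 kb in the weakest and 7.59 kb in the strongest group, and on microchromosomes 9.29 and 1.41 kb. The 130 peaks with a score of at least 500 had a median width of 4310.0 bp (3822 to 4675) and a neighbour at a median of 1.02 kb (0.66 to 1.62).

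On chromosome 2 SMC2 peaks were clustered less than on the other macrochromosomes. Single peaks were the majority in the whole list too, at 3892 of 6474. Its 515 peaks had a median gap of 116 kb, close to the 112 kb of chromosome 1, but few short gaps. Of its 514 gaps, 27 were under 5 kb, or 5.25% (3.49 to 7.55), against 66 of 417 on chromosome 1, or 15.8% (12.5 to 19.7). The shares were 13.9% on chromosome 3, 22.5% on chromosome 4 and 26.3% on chromosome 5. Gaps under 1 kb made up 1.56% on chromosome 2 and 7.67% on chromosome 1, while gaps under 100 kb made up 46.3% and 47.7%. Chromosome 2 had 1 run of 3 or more peaks, with 4 peaks, or 0.777% (0.212 to 1.98) of its peaks, against 15 such runs with 55 peaks, or 13.2% (10.1 to 16.8), on chromosome 1. Its share of short gaps was the lowest of the 29 chromosomes, and the next lowest was that of chromosome 3.

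Long empty stretches were also fewer on chromosome 2. Windows of 1 Mb were counted up to the last peak of a chromosome. Of those on chromosome 2, 18.1% held no peak, against 35.7%, 35.1%, 35.6% and 23.3% on chromosomes 1, 3, 4 and 5. Its longest gap was 3.52 Mb, against 6.26, 6.24, 4.57 and 3.66 Mb. Peak density also differed and was not adjusted for. The copy number of each chromosome in these cells is unknown here and was not adjusted for either. Chromosome 2 had 515 peaks in 149 windows. Chromosomes 1, 3, 4 and 5 had 418 in 196, 174 in 111, 241 in 90 and 214 in 60. The ratio of the upper to the lower quartile of gaps was 12.3 on chromosome 2 and from 17.9 to 59.3 on the other macrochromosomes. Isolated peaks were wider there than on the other macrochromosomes. The median was 1263 bp (1180 to 1381) for the 179 peaks with no other within 100 kb. For the 359 such peaks on chromosomes 1, 3, 4 and 5 it was 864 bp (833 to 908). Over all peaks, chromosomes 16, 20 and 24 had higher median widths, at 1655, 1589 and 1523 bp, than the 1359 bp of chromosome 2. From close to distant neighbours the medians on chromosome 2 were 1363.5 bp (912 to 2874, 16 peaks), 1206 bp (1087 to 1511), 1491 bp (1272 to 1665), 1429 bp (1347 to 1577) and 1263 bp, with no single direction over the 5 sets but a fall over the last 3, which hold most of its peaks. On chromosomes 1, 3, 4 and 5 they fell at each step, from 1325 bp (1170 to 1494). Median scores in the isolated sets were 63.0 and 62.7. With the upper 50% of peaks by score, gaps under 5 kb were 3.17% (1.17 to 6.78) on chromosome 2 and 18.3% (12.9 to 24.8) on chromosome 1. Chromosome 2 was singled out for its values, and its wider peaks were already known, so its intervals describe this list and give no independent support.

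**Figure D4:**
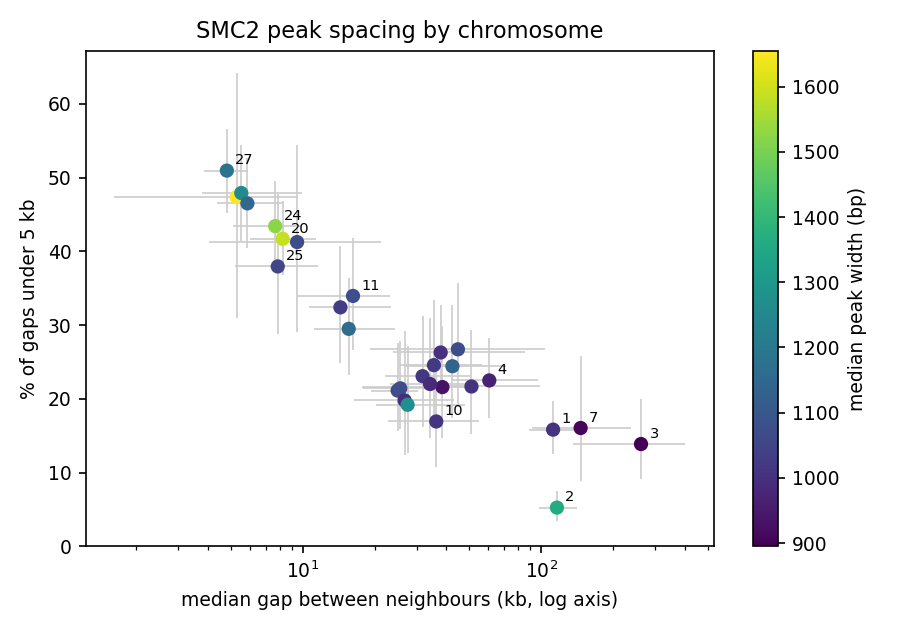
Share of gaps under 5 kb (vertical, %, with exact binomial 95% intervals) against the median gap (horizontal, kb on a log axis, with order-statistic intervals) for the 29 chromosomes with at least 20 SMC2 peaks, coloured by median peak width (bp), with 11 of the chromosomes named. Chromosome 2 lies at 5.25%, below chromosomes 1, 3 and 7 at 15.8%, 13.9% and 16.0%.

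Chromosome Z combined the longest gaps of the genome with a group of wide peaks near its highest coordinate. The 5 longest gaps on placed chromosomes were all on Z, at 12.7 Mb from 12780098, 9.13 Mb from 56002652, 6.70 Mb from 49295570, 6.64 Mb from 66349362 and 6.64 Mb from 42656239. The last 4 of these lay in a stretch of 30.3 Mb, from 42656239 to 72988816, that held 13 of the 126 peaks of Z. The 13 gaps of at least 1 Mb on Z made up 88.2% of its summed gap length, and 72.3% of its 1-Mb windows held no peak. Its median gap was nonetheless 27.5 kb, with a mean of 590 kb. The 19 peaks in the last 1 Mb before the highest coordinate, 82267777, had a median width of 4753 bp, and 17 of them reached 2 kb. The median width of the other peaks of Z was 1157 bp. In that last 1 Mb the median gap was 7.72 kb, above the 5 kb set for runs. No run on Z held more than 3 peaks. The copy number of Z, gaps in the assembly and how well reads map there were not checked.

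Around TSSs the SMC2 signal leaned downstream near the start site and upstream farther out. The profile gives a Sample and a Control signal at each base from 5000 bp on one side to 5000 bp on the other, summed or averaged over an unstated number of genes. Negative distances are taken as upstream, which the header does not say. In the first 100 bp the mean Sample signal was 6158 upstream (range over bases 6023 to 6437) and 6801 downstream (6402 to 7104). From 100 to 200 bp it was 5801 (5649 to 6044) upstream and 6578 (6270 to 6963) downstream, and from 400 to 500 bp it was 5420 (5241 to 5592) and 5672 (5579 to 5791). Downstream was thus above upstream at each of these distances, by 1.10, 1.13 and 1.05 times. Over the whole 500 bp the sides were 5707 and 6242, a ratio of 1.09. Bases next to each other share reads and all come from 1 aggregate, so no test applies.

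Beyond 1 kb the order of the sides was the opposite. Between 1000 and 2000 bp the mean Sample was 4868 upstream and 4810 downstream, between 2000 and 3000 bp it was 4670 and 4483, between 3000 and 4000 bp it was 4547 and 4396, and beyond 4000 bp it was 4543 and 4360. The downstream side was at 0.99, 0.96, 0.97 and 0.96 of the upstream side. In mirrored windows of 100 bp, downstream was higher in 9 of the 10 windows within 1000 bp and lower in 37 of the 40 beyond. Over the full 5000 bp the sides nearly balanced, at 4801 upstream and 4760 downstream, a ratio of 0.99.

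**Figure D5:**
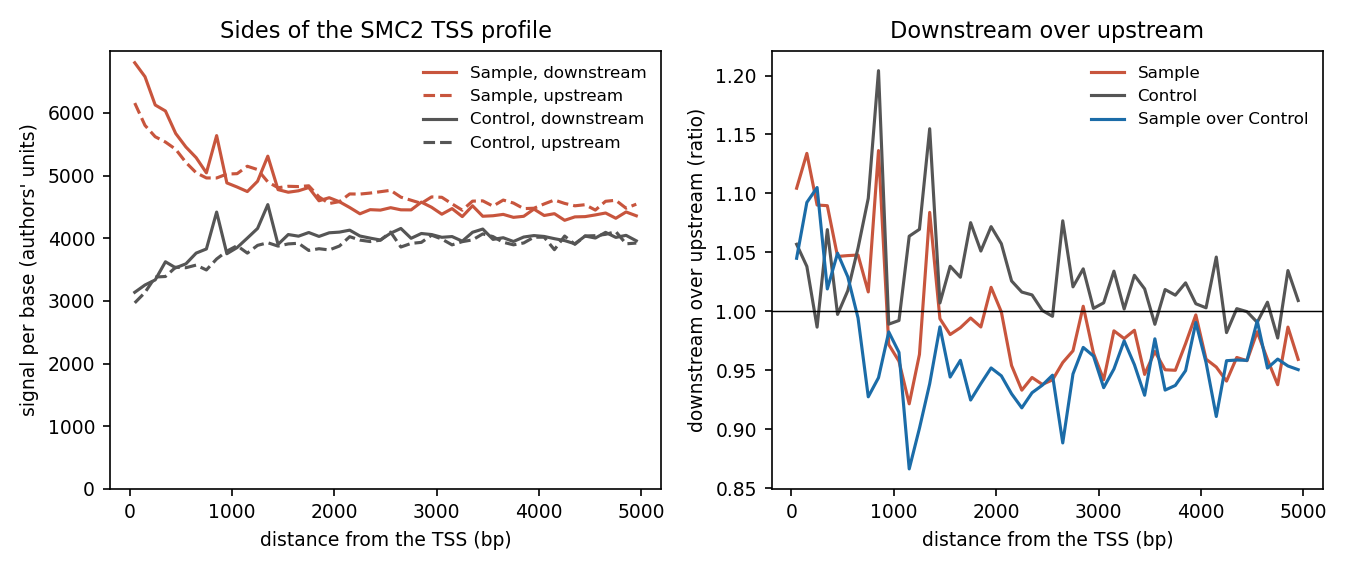
SMC2 TSS profile with its sides laid over each other, in means over 100 bp. Left, Sample and Control signal per base (vertical, authors' units) against distance from the TSS (horizontal, bp), downstream solid and upstream dashed; right, the downstream value over the upstream value (vertical, ratio) for Sample, Control and Sample over Control. Sample lies above 1 in 9 of 10 windows within 1000 bp and below 1 in 37 of 40 beyond. Control lies above 1 in 7 of 10 windows within 1000 bp and in 33 of 40 beyond. Sample over Control lies above 1 in 6 of 10 windows within 1000 bp and below 1 in all 40 beyond.

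Control leaned weakly downstream over most of the profile. Its sides were 3282 upstream and 3375 downstream within 500 bp, a ratio of 1.03, and 3861 and 4075 between 1000 and 2000 bp, a ratio of 1.06. Beyond 4000 bp they were 3985 and 4004. The lowest Control base, 2884, lay 31 bp upstream, at position -31, and the highest Sample base lay downstream. The downstream lean near the TSS was smaller than in Sample when Control was divided out and larger when it was subtracted. Sample minus Control was 2425 upstream and 2866 downstream within 500 bp, a ratio of 1.18. Sample over Control was 1.74 upstream and 1.85 downstream within 500 bp, a ratio of 1.06. In mirrored windows Sample over Control was higher downstream in 5 of 5 within 500 bp, in 1 of 5 from 500 to 1000 bp and in 0 of 40 beyond. The most unequal window lay from 1100 to 1200 bp, where Sample over Control was 1.37 upstream and 1.19 downstream.

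The shape of the Sample summit was lopsided. Its height was taken over the mean beyond 4000 bp on the same side, from the highest base, 7104 at 78 bp downstream. The signal had lost 50% of this height 137 bp upstream of the TSS and 412 bp downstream, which is 215 and 334 bp from the summit. It had lost 75% of the height 507 bp upstream and 754 bp downstream of the TSS. With a running median over 3 read lengths the 50% points lay 230.0 bp upstream and 523 bp downstream. Summed over 500 bp, the signal above the outer flank of its own side was 1.62 times as large downstream as upstream, and over 4000 bp 1.56 times. For Sample minus Control these sums were 1.35 and 1.13 times as large downstream. All of these sums depend on the unequal flanks taken off, for Sample 4543 upstream and 4360 downstream. With no flank taken off, downstream over upstream for Sample was 1.09 within 500 bp and 0.99 within 5000 bp. For Sample minus Control it was 1.18 and 0.84. The inner 1000 bp held 64.6% of the upstream and 69.5% of the downstream sum of Sample. For Sample over Control the 50% points were 223 bp upstream and 312 bp downstream of the TSS, or 299 and 236 bp from its highest base, 2.25 at 76 bp downstream, so seen from that base it was wider on the upstream side. With the running median these distances were 307 and 341 bp, and the order of the sides turned. With Control divided out or subtracted, the points of 75% loss lay farther from the highest base upstream. For Sample over Control they were 647 bp upstream and 567 bp downstream of it, and 795 and 670 bp with the running median. For Sample minus Control they were 685 and 637 bp, and 888 and 797 bp. Sample alone had the opposite order, at 585 and 676 bp. Counted from the TSS, Sample over Control had 571 and 643 bp, and 755 and 710 bp with the running median.

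A narrow step on the downstream side was shared by Sample and Control. From one base to the next Sample changed by a median of 12. It changed by 100 or more at 15 bases, 11 of which lay between 827 and 883 bp downstream. Control changed by that much at 10 bases, 9 of them in the same span and the other at 312 bp. Outside the span Sample rose at 312 and fell at 361 bp, and rose at 1271 and fell at 1320 bp. The first of these pairs lies within the 500 bp used above, and both were left in every setting. Within the span from 827 to 883 bp Sample averaged 6114, against 4955 in the 57 bases before and 4899 in the 57 after. Control averaged 4805 there, against 3814 and 3883. Sample over Control in the span was 1.27, between the 1.30 before and the 1.26 after. This window, from 800 to 900 bp, was the most unequal for Sample, at 4962 upstream and 5638 downstream, and for Control, at 3669 and 4418. Without the span on either side, the ratio of the sides of Sample within 1000 bp was 1.06, against 1.07 with it.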

How the data were processed

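One SMC2 pull-down library is described; there were no replicates. Single-end reads of 50 bp were sequenced, per the labels' protocols. The submitters' processing notes name BWA and galGal4. The deposited peak list holds, per peak, a start, an end and a score; its names are those the caller MACS writes, while no source used here states the settings of the calling. Deposited starts count from 0, and 1 was added. The deposited TSS profile gives, per the file headers, a Sample and a Control signal per base, with unstated aggregation and scaling; every Control value is a multiple of 2. Difference equals Sample minus Control.

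Computed here were widths (end minus start), gaps, runs with gaps of 5 kb or less, and means of mirrored windows; for a window, Sample over Control is the ratio of the means. Medians have order-statistic and shares exact Clopper-Pearson binomial intervals, at 95%, for counting error only; neighbouring peaks are not independent. No test was made. Members, measures and named regions (the 10 widest and 5 narrowest peaks, 5 shortest and longest gaps, 5 longest runs, profile extremes) were chosen with earlier results of these data known; chromosome 2, the last 1 Mb of Z and the narrow step were picked once their values had been seen. Python 3.11.15, numpy 2.4.6, pandas 2.3.3, scipy 1.17.1 and matplotlib 3.10.9 were used. Widths, gaps, runs, merging, a mirrored-window ratio and the interval of a median were tested on simulated data. The other steps were not. Sequences of sites were not used here.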

Additional observations from a re-analysis of the deposited data

How the results depend on the processing

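The median width of 1126 bp became 1431.5 bp with the upper 50% of peaks by score, 1162 bp with peaks of 5 kb or less apart merged, 1068 bp as the median over chromosomes and 1104 bp without chromosome 2, a setting added after the data were seen. The median gap of 21.0 kb became 25.5 kb with the upper 50% by score, 23.1 kb on placed chromosomes, 31.0 and 50.8 kb with peaks of 1 and 5 kb or less apart merged, 27.5 kb over chromosomes and 17.8 kb without chromosome 2. The share of gaps under 5 kb, 29.6%, became 27.9% on placed chromosomes, 19.0% with 1-kb merging, 24.4% over chromosomes, 24.4% between middles of peaks and 32.0% without chromosome 2; with 5-kb merging it is 0 by construction. On chromosome 2 the share of 5.25% became 3.17% with the upper 50% by score.

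At the TSS the downstream to upstream ratio of Sample, 1.09 within 500 bp, turned to 0.96 beyond 4000 bp and 0.99 over 5000 bp. It was 1.01 from 500 to 2000 bp, 1.14 when each side was divided by its own outer flank, 1.18 for Sample minus Control and 1.06 within 1000 bp without the narrow step, a setting added after the data were seen. For Sample over Control the ratio of 1.06 turned to 0.95 from 500 to 2000 bp, 0.95 beyond 4000 bp and 0.96 over 5000 bp; it was 1.02 within 1000 bp, 1.03 there without the step, and 1.11 divided by the outer flanks. Other settings moved a ratio by less than 1 SD over the 5 windows of 100 bp, 0.032 for Sample and 0.036 for Sample over Control. That SD is the spread along a single profile and measures no error. Depth, replicate error and the scaling of Control are unknown, so ratios between the columns hold only for the values as deposited.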
